A study of Mus musculus with 19 samples.

Results

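Hepatic stellate cells (HSCs) that had been cultured for 6 h were compared with HSCs of the same kind that were collected straight after sorting (0 h), across all genes and with emphasis on genes outside the fibrogenic and initiatory gene programs of the study. The comparison holds 5 of the 19 RNASeq samples of the series, 3 at 6 h and 2 at 0 h, chosen by the culture time in their labels. The cells of all samples came from healthy, untreated male Balb/c mice aged 23 to 24 weeks and were sorted by the ultraviolet fluorescence of their vitamin A. The 0 h cells were never cultured, whereas the 6 h cells were kept on collagen-coated plates in Dulbecco's modified Eagle's medium with 10% fetal bovine serum, which was renewed at 3 h. Each sample stands for 2 technical repeats that the counts do not separate. The labels mark samples as M1, M2 or M3 without saying what M stands for: the 0 h samples are M3 and M2, and the 6 h samples M1, M3 and M2. The table's headers give M1 and M3 the same isolation date and M2 another. There was no fresh M1 sample. Culture time, time since liver perfusion and sorting, plating, adhesion and the new medium cannot be told apart in this design. The 3 samples taken at 3 h served to place changes before or after that timepoint.

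HSCs lie in the space between hepatocytes and the sinusoidal endothelium, where they store vitamin A as retinyl esters and keep the sinusoids in tone. When they are isolated and plated, they spread, lose their lipid droplets and turn into contractile, matrix-producing cells over days. Cells that enter such a state first raise transcription factors of the immediate early class, and later the machinery that makes amino acids, ribosomes and proteins.

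Counts per gene came from 3' end sequencing, in which 1 read stands for 1 transcript end. If the counts are reads, levels of different genes can be set side by side without a correction for length. The counting tool is not given, so this could not be checked. The 0 h samples held 2073171 and 4466759 counts, and the 6 h samples 3376702, 5609553 and 5430082. Levels are given as CPM (counts scaled to a common library total) with TMM factors, in the order M3 and M2 at 0 h and M1, M3 and M2 at 3 h or 6 h. Taking 3 counts as the smallest level that can be shown, the floor was 1.503 CPM at 0 h and 0.889 CPM at 6 h. The fresh samples correlated with one another less well (r = 0.768 over log2 CPM of genes) than the 6 h samples did (r between 0.805 and 0.835), and samples of different timepoints had r between 0.657 and 0.704. The study calls the repeats of a timepoint independent, but neither it nor the labels say whether they are separate animals or cultures. The p-values therefore measure only the spread between these samples.

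The sorted cells carried transcripts of other liver cells. Summed levels of some marker lists, such as those of hepatocytes and Kupffer cells, were lower at 6 h, whereas those of endothelial markers overlapped. The summed level of 20 hepatocyte markers was 11723 and 5700 CPM at 0 h and 180, 624 and 186 CPM at 6 h. Albumin (Alb) alone went from 4447 and 1813 CPM to 39.5, 218 and 37.6 CPM. Of the 20 markers, 10 were called lower and 0 higher, but only 4 to 7 were when any 1 of the 5 samples was left out. Alb itself was no longer called without the 0 h sample M3 (adjusted p = 0.115). The 16 Kupffer cell and macrophage markers summed to 587 and 682 CPM at 0 h and to 40.6, 42.8 and 66.0 CPM at 6 h, with 3 of 15 tested markers lower: Clec4f, Cd5l and C1qb, each without a count at 6 h. In contrast, the 16 sinusoidal endothelial markers summed to 1294 and 1960 CPM at 0 h and to 1702, 438 and 727 CPM at 6 h. None of them was called with edgeR or DESeq2 (0 also at an unadjusted p below 0.05), and the ranges overlapped, while 2 were lower with the M number as a replicate block. Their sum was highest in M1, which reached 5691 CPM at 3 h. Erythroid markers summed to 353 and 162 CPM and then to at most 13.3 CPM, with 1 of 4 tested (Hbb-bs) called lower. Without the 6 h sample M2, the 1 call was Hba-a1 instead (adjusted p = 0.0951). Without any other of the 5 samples, none was called. Summed levels of the cholangiocyte, lymphocyte and granulocyte, and mesothelial lists were at most 19.1 CPM in each of the 5 samples, with 0 of 2, 0 of 1 and 0 of 4 tested markers called by edgeR or DESeq2, and 0 at an unadjusted p below 0.05. Portal fibroblast and vascular smooth muscle markers summed to 323 and 218 CPM and to 89.9, 77.6 and 45.9 CPM, with 0 of 9 called by edgeR or DESeq2, 2 at an unadjusted p below 0.05 and 1 with the M number as a block. In bulk samples, fewer cells of a type and less RNA per cell cannot be told apart. The part of these other cells in the changes described next was not tested.

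**Figure D1:**
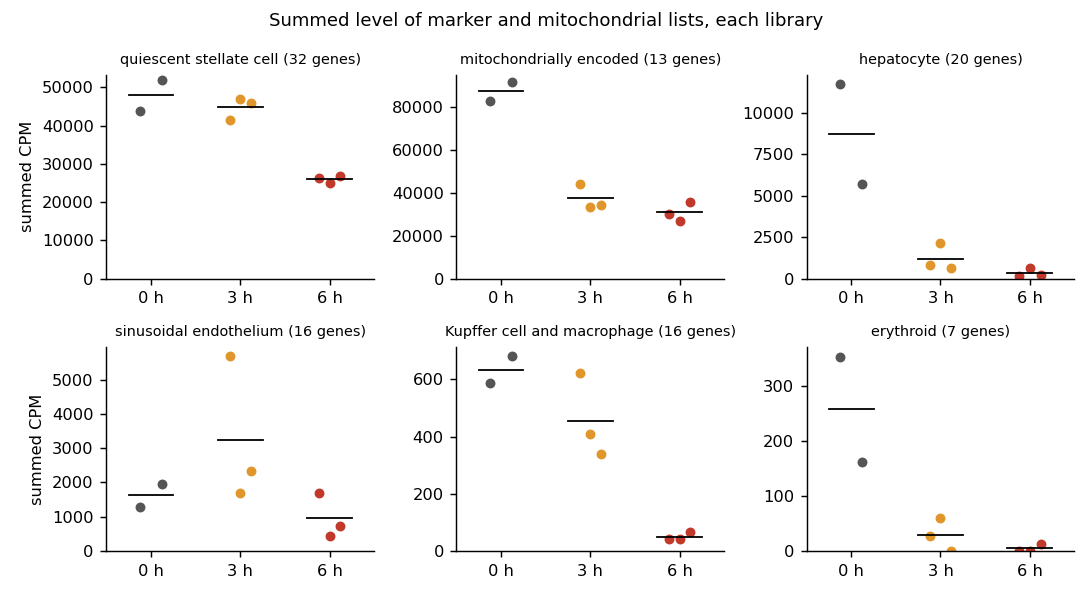
Summed CPM (vertical axis, starting at 0) of marker lists of stellate and other liver cells and of the mitochondrially encoded genes in each library at 0, 3 and 6 h. Points are libraries and lines are group means. Hepatocyte markers sat at 5700 CPM or above at 0 h and at 624 CPM or below at 6 h, while endothelial markers overlapped between the groups.

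Of 15138 genes tested with edgeR's quasi-likelihood test, 1715 (11.3%) changed by a fold of more than 2 with an adjusted p under 0.1, and such genes are referred to as called. A higher level at 6 h was seen for 1056 genes (6.98%) and a lower one for 659 (4.35%). These shares over all genes are the background for each count of list members given in this report. The count per direction depended on the scaling: with the size factors of DESeq2, which moved the log2 fold change of the median gene by -0.23, 828 genes were higher and 862 lower, a share of 49.0% higher instead of 61.6%. Only 91 of the calls belonged to the fibrogenic and initiatory programs, which together hold 206 genes, and 88 of these were higher. The study chose the initiatory program partly on the 6 h and 0 h samples, so its direction is not independent evidence, whereas it took the fibrogenic program from HSCs of mice with carbon tetrachloride injury. Outside both programs remained 968 higher and 656 lower genes. Most called genes (1634) were protein-coding. All 6 h samples lay on one side of both 0 h samples for 1673 of the 1715 genes. The calls rest on the same samples, and the share over all genes tested was not counted. Such separation, here and for genes named below, is therefore not further evidence of a change. There were 110 called genes without a count in either 0 h sample and 112 without a count in any 6 h sample, for which a fold change is given only as a lower bound. The number of genes with a count did not follow depth. It was 11171 in the 6 h sample M3 (5609553 counts) and 15189 in the 6 h sample M2 (5430082 counts). Whether a zero is a low level or a gap in the counting was not tested, and the bounds take it as a low level. Changes above 8-fold were seen for 297 higher and 243 lower genes.

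**Figure D2:**
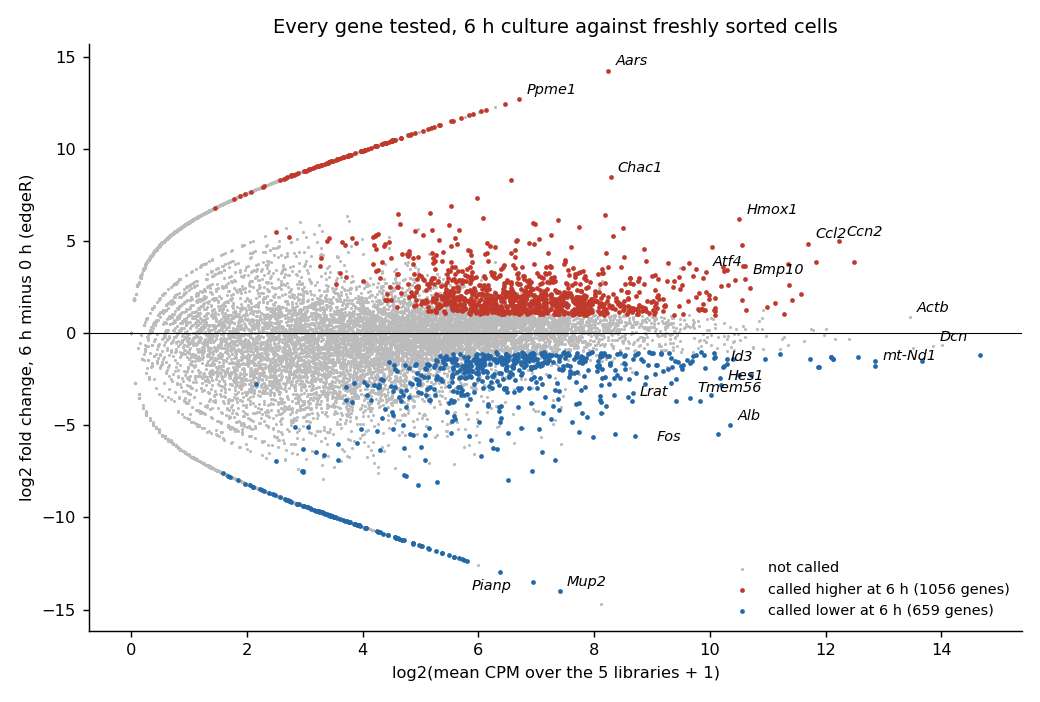
Log2 fold change at 6 h against 0 h (vertical axis, edgeR) and mean level over the 5 libraries (horizontal axis, log2 of CPM plus 1) of all 15138 genes tested. Red points are the 1056 genes called higher and blue points the 659 called lower. The curved outer edges hold genes without a count in one of the groups, such as Aars (no count at 0 h) and Pianp (no count at 6 h).

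Genes with the largest increases outside both programs, at a mean of at least 50 CPM, are given first. Aars, the alanyl-tRNA synthetase, had no count at 0 h and reached 359, 514 and 642 CPM at 6 h, which is at least 336-fold higher. Ppme1, which demethylates the catalytic subunit of protein phosphatase 2A, went from no count to 195, 155 and 168 CPM, at least 115-fold. Supt16, a subunit of the histone chaperone FACT, went from no count to 143, 128 and 165 CPM, at least 96.5-fold. Both Ppme1 and Supt16 had counts at 3 h and did not pass the test between 3 h and 6 h (adjusted p = 0.386 and 0.132). Mak16, a factor of large ribosomal subunit assembly, and Jdp2, a repressor that dimerizes with Jun, were at least 72.3-fold and 62.4-fold higher. Cxcl5, a neutrophil chemokine, was at least 76.8-fold higher. Cyp1a1, the classic target of the aryl hydrocarbon receptor, was close to absent at 0 h (0 and 0.752 CPM) and at 3 h (0, 1.52 and 0 CPM) and reached 254, 132 and 80.3 CPM at 6 h. The log2 fold change of Cyp1a1 was 8.30 ± 1.45 SE against 0 h (adjusted p = 0.00128) and 8.05 against 3 h (adjusted p = 0.00124). Gch1, the entry enzyme of tetrahydrobiopterin synthesis, had 8.54 and 2.26 CPM at 0 h and 155, 153 and 181 CPM at 6 h, although its call was lost without the 0 h sample M2 (adjusted p = 0.104). Snhg15, a long non-coding host gene of small nucleolar RNA, rose from 0 and 1.00 CPM to 98.8, 100 and 109 CPM.

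Among the largest decreases, several genes encode proteins of hepatocytes: Mup2, Mup15, Ambp, Mug1, Mat1a, Apoa2, Ahsg, Apoc3 and Serpina3k. Apoa2, Ahsg, Apoc3 and Serpina3k are members of the hepatocyte list summed above. Serpina3k had 687 and 540 CPM at 0 h and 11, 17.2 and 8.55 CPM at 6 h. Mup2 and Mup15 belong to a family of near-identical genes, so the reads of single members are uncertain. The calls of Mug1, Ahsg and Apoc3 were lost without any 1 of the 5 samples. Apoc3 was also lost with the M number as a block (adjusted p = 0.269). Other large decreases were of genes that are not markers of hepatocytes on the lists used. Pianp had 328 and 285 CPM at 0 h and 167, 180 and 227 CPM at 3 h, and no count in any sample at 6 h, at least 344-fold lower than at 0 h. Adra2b, a receptor for noradrenaline, went from 319 and 281 CPM to 0, 0 and 4.77 CPM. Arvcf, a catenin of cell junctions, fell from 162 and 205 CPM to 1.78, 0.731 and 4.77 CPM. Tpbgl followed the same course, with 193 and 167 CPM before and 3.26, 0.365 and 5.97 CPM after culture. Jup, the junction protein plakoglobin, had 624 and 953 CPM and then 38.9, 0 and 15.7 CPM, but was not called without the 0 h sample M2 (adjusted p = 0.107). The decrease of Nr1h5 (136 and 137 CPM to 5.34, 0 and 3.38 CPM) was lost without any 1 of the samples.

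Targets of ATF4 and the tRNA synthetases had the highest median of the 36 pathway lists. ATF4 is the transcription factor of the integrated stress response, which switches on amino acid uptake, amino acid synthesis and tRNA charging when amino acids run short or proteins misfold. Of 37 tested members, 30 rose and 0 fell, with a median log2 fold change of 3.52 (3.33 with genes absent at 0 h set to their bound) beside 0.00 over all genes tested. The count was 29 with the size factors of DESeq2 and lay between 27 and 30 when single samples were left out. Atf4 itself rose from 120 and 183 CPM to 1339, 1045 and 2199 CPM (log2 fold change 3.33 ± 0.30 SE, adjusted p = 3.08e-06). It had reached 1327, 1055 and 1097 CPM by 3 h and did not pass the test between 3 h and 6 h. Against 3 h, 19 of the list's members were higher at 6 h, where 2.5% of all genes were. Chac1, which degrades glutathione, had 2.51 and 0.752 CPM at 0 h, 70.7, 113 and 67.4 CPM at 3 h and 305, 564 and 683 CPM at 6 h, a log2 fold change of 8.46 ± 0.70 SE against 0 h. Trib3, a pseudokinase that restrains ATF4, went from no count to 84.5, 62.7 and 108 CPM, at least 56.5-fold, but lost its call without the 0 h sample M2 (adjusted p = 0.116). Sesn2, a leucine sensor upstream of mTORC1, rose from 0 and 2.51 CPM to 128, 65.6 and 136 CPM.

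Carriers of amino acids changed in the same direction. Slc7a5 and Slc3a2 encode the subunits of the large neutral amino acid transporter LAT1. Slc7a5 had 2.01 and 5.27 CPM at 0 h and 272, 309 and 236 CPM at 6 h (log2 fold change 6.13 ± 0.45, adjusted p = 4.73e-07). Slc3a2 rose from 170 and 222 CPM to 2541, 2242 and 2619 CPM (3.65 ± 0.31). Slc7a1, the carrier for cationic amino acids, rose from 41.7 and 48.9 CPM to 545, 581 and 547 CPM (3.62 ± 0.25). The groups did not overlap for any of these carriers. The asparaginyl-tRNA synthetase Nars rose from 151 and 90.0 CPM to 1027, 1526 and 1548 CPM (3.51 ± 0.28). The members that were not called were Psph, Pycr1, Slc7a11, Slc1a5, Cebpg, Vldlr and Mars.

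The promoters of this list are shown because its members moved together. In the 250 bases before the start site, the motif TGATGNAA of ATF4 composite sites, searched on both strands, was present in 6 of the 22 members called higher that have a single promoter in the RefSeq table (27.3%), and in 1.94% of the 7724 promoters of all tested genes. Other motifs were found there too: the antioxidant response motif TGACNNNGC in 6 of the 22 (12.1% of all promoters) and the E-box CACGTG in 5 (8.43%). Among the promoters of all genes called higher, 2.97% held the ATF4 motif. The list was made of known ATF4 targets and tRNA synthetases, so its share depends on that choice. This is a description of the letters and not of binding, and whether ATF4 acted on these genes was not tested. The promoters of Chac1 (chr2:119350992-119351241 on the plus strand) and Aars (chr8:111033592-111033841 on the plus strand) of GRCm38.p6 are printed in the direction of transcription, with the motif in capitals, which reads as its reverse complement in both.
Chac1 promoter: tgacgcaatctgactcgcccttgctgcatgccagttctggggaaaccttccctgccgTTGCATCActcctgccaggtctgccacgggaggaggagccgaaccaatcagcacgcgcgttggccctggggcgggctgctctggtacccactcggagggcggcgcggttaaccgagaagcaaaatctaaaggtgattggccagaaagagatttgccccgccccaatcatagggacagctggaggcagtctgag
Aars promoter: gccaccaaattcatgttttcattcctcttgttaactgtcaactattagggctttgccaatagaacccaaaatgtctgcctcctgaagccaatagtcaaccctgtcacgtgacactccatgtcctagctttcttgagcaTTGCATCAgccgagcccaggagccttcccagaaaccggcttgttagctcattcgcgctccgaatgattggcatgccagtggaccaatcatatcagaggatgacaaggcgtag

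Genes that build ribosomes rose together. Of 48 tested genes of Myc and ribosome biogenesis, 34 rose and 0 fell, with a median log2 fold change of 2.12. With the size factors of DESeq2 it was 30, and between 26 and 33 without single samples. Tsr1, a maturation factor of the small subunit, had 8.03 and 6.27 CPM at 0 h, 75.3, 78.0 and 102 CPM at 3 h and 163, 226 and 214 CPM at 6 h (log2 fold change 4.82 ± 0.33 against 0 h, adjusted p = 2.89e-07). Ncl, the nucleolar protein nucleolin, rose from 322 and 306 CPM to 1623, 1748 and 2352 CPM (2.60 ± 0.20). Ddx21, an RNA helicase of the nucleolus, rose from 209 and 156 CPM to 1486, 1364 and 1479 CPM (2.98 ± 0.25). Gnl3, or nucleostemin, rose from 91.9 and 87.8 CPM to 519, 597 and 677 CPM (2.73 ± 0.24). For each of these genes, the lowest 6 h sample lay above the highest 0 h sample. Myc itself, named after its values were seen, went from 24.6 and 15 CPM to 287, 322 and 111 CPM (3.61 ± 0.81) and was not called without the 0 h sample M2 (adjusted p = 0.114). Myc E-boxes (CACGTG) were found in 0 of 26 promoters of the called members and in 8.43% of all promoters, which says only that these letters are not in this window.

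The proteins of the ribosome are described apart from the factors that assemble it. Only 1 of 79 cytosolic ribosomal protein genes was called, Rpl4, and its call was lost with the size factors of DESeq2. At an unadjusted p below 0.05, 34 of the 79 were higher and 0 lower. The median log2 fold change of the 79 was 0.45 (0.22 with those factors). The most abundant member, Rps29, had 2880 and 2594 CPM at 0 h and 2535, 2120 and 1986 CPM at 6 h, and Rps27 had ranges that overlapped. Many ribosomal protein genes share reads with processed pseudogenes, which leaves single members uncertain. Translation factors, which load ribosomes with mRNA and tRNA, rose in 19 of 31 cases and fell in 0 (median 1.28). Eif2s2, the beta subunit of the initiation factor eIF2, rose from 659 and 626 CPM to 3466, 3919 and 4597 CPM (2.64 ± 0.22, adjusted p = 1.64e-06). Eif4ebp1, the repressor of the cap-binding protein, rose from 26.6 and 28.1 CPM to 341, 291 and 309 CPM (3.52 ± 0.31). Among elongation factors, the abundant Eef1a1 was not called (0.22 ± 0.25, adjusted p = 0.655).

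**Figure D3:**
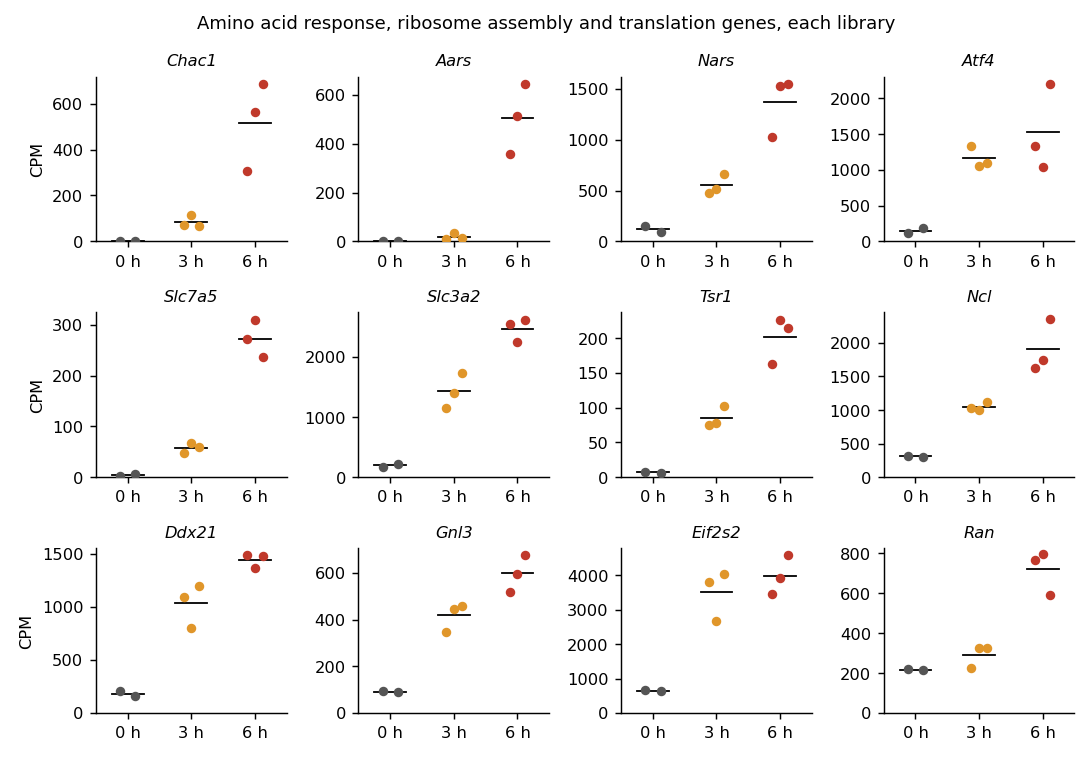
CPM (vertical axis, starting at 0) of 12 genes of the amino acid response, ribosome assembly, translation and nuclear transport in each library at 0, 3 and 6 h, with group means as lines. The 3 libraries at 6 h lay above both libraries at 0 h for every gene shown, and Atf4 and Eif2s2 had reached their 6 h range by 3 h.

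Genes of transport between nucleus and cytoplasm were higher in part. Of 20 genes, 9 rose and 1 (Xpo1) fell, a call that 6 alternatives did not give, and only 5 rose with the size factors of DESeq2. Ran, the GTPase that drives this transport, rose from 221 and 214 CPM to 769, 797 and 592 CPM (1.72 ± 0.21). Its partner Ranbp1 rose from 14.1 and 11.3 CPM to 72.4, 64.3 and 79.7 CPM, and the importin Ipo7 from 51.7 and 118 CPM to 595, 870 and 556 CPM.

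Chaperones fold new proteins. Of 14 genes of the cytosolic chaperonin and prefoldin, 6 rose and 0 fell (median 0.93, and 4 with the size factors of DESeq2). Cct3 rose from 232 and 136 CPM to 493, 454 and 592 CPM (1.48 ± 0.25). Of 26 heat shock chaperones, 5 rose and 3 fell. The risen ones included the mitochondrial chaperones Hspa9 (107 and 111 CPM to 697, 986 and 842 CPM, 2.95 ± 0.28) and Hspd1, and the cytosolic Hsp90aa1 (315 and 311 CPM to 875, 1171 and 1643 CPM, 1.97 ± 0.25). Hsp90ab1, the most abundant, was not called (0.65 ± 0.21, adjusted p = 0.0707). Those that fell were Hspa8, Cryab and Fkbp4, named after their values were seen. Without the 0 h sample M2, 1 of the 3 was called. In the endoplasmic reticulum, 6 of 26 genes rose and 0 fell: the stress sensors Ern1 and Atf6, the chaperones Hspa5 and Dnajb9, and Herpud1 and Ddit3. Hspa5, known as BiP, rose from 1296 and 746 CPM to 3670, 3343 and 6281 CPM (2.12 ± 0.39). Serpinh1, the collagen chaperone, was not called (0.18 ± 0.28). Proteasome genes were called higher in 2 of 32 cases and lower in 1, near the shares over all genes tested (6.98% and 4.35%). Psmd11 held its call under every alternative (1.68 ± 0.24), whereas Psmc4 and Psmb3 lost theirs under several. Lysosomal genes gave 0 calls of 24 with edgeR, with 1 higher and 5 lower at an unadjusted p below 0.05. DESeq2 called 3 lower, and 1 was lower with the M number as a block.

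Genes of the oxidative stress response, which the transcription factor NRF2 controls, were higher in part. Of 32 genes, 11 rose and 1 (Cat, catalase) fell, while 3 fell with the M number as a block. Hmox1, heme oxygenase, had 40.2 and 25.6 CPM at 0 h, 204, 190 and 233 CPM at 3 h and 2676, 1272 and 3250 CPM at 6 h. This was a log2 fold change of 6.20 ± 0.41 against 0 h (adjusted p = 2.04e-07) and of 3.52 against 3 h (adjusted p = 3.94e-05). Txnrd1, a thioredoxin reductase, rose from 79.3 and 120 CPM to 1120, 1006 and 1377 CPM (3.54 ± 0.31). Gclm, a subunit of the enzyme that makes glutathione, rose from 8.03 and 17.8 CPM to 172, 82.6 and 213 CPM (3.56 ± 0.49). Pgd, of the pentose phosphate pathway, had 39.7 and 32.1 CPM at 0 h, 49.4, 44.0 and 41.9 CPM at 3 h and 168, 177 and 172 CPM at 6 h. The ferritin heavy chain Fth1 was not called (-0.34 ± 0.20, adjusted p = 0.331).

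All 13 mitochondrially encoded protein genes fell, with a median log2 fold change of -1.41. They encode core subunits of the respiratory chain and ATP synthase. Their summed level was 83060 and 92037 CPM at 0 h, 44334, 33615 and 34534 CPM at 3 h and 30178, 26841 and 35974 CPM at 6 h, and the larger step lay before 3 h. Between 3 h and 6 h, 0 of the 13 were called with edgeR, and 2 had an unadjusted p below 0.05. The largest part came from mt-Nd2 (21959 and 20530 CPM to 6341, 4808 and 11041 CPM). mt-Nd1 went from 12451 and 13375 CPM to 4036, 3601 and 3799 CPM (-1.76 ± 0.16, adjusted p = 3.59e-06). mt-Co2 went from 5955 and 7381 CPM to 1976, 1990 and 1686 CPM (-1.82 ± 0.18). Between 11 and 12 of the 13 were called when single samples were left out. Nuclear copies of mitochondrial genes can take reads from them. Hepatocyte markers summed to 11723 and 5700 CPM in the same 0 h samples. The part of hepatocyte RNA in the decrease was not tested.

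Nuclear genes of the respiratory chain were lower as well. Of 72, 17 fell and 1 (Cycs, cytochrome c) rose, with a median of -0.86. The number that fell was 25 with the size factors of DESeq2 and 29 with its own test, but 8 and 9 without the 0 h sample M3 or M2, 11 without the 6 h sample M2, and 9 when only the groups compared were fitted. Ndufb3, a subunit of complex I, went from 198 and 239 CPM to 71.2, 68.1 and 47.7 CPM (-1.81 ± 0.37). Ndufa13 went from 145 and 91.8 CPM to 27.9, 22.8 and 26.6 CPM (-2.19 ± 0.49). The most abundant, Atp5g3 and Cox7c, were not called.

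Of 31 genes of glycolysis and the hypoxia response, 6 rose and 3 fell, beside 6.98% and 4.35% of all genes. With the size factors of DESeq2 or its own test, 5 fell. Hk2, hexokinase 2, rose from 41.7 and 37.4 CPM to 345, 537 and 449 CPM (3.49 ± 0.35). Slc2a1, the glucose transporter GLUT1, rose from 13.1 and 9.78 CPM to 89.9, 69.1 and 113 CPM. Pfkfb3, which makes an activator of phosphofructokinase, peaked at 3 h (178, 159 and 200 CPM) and stood at 92.0, 107 and 94.2 CPM at 6 h, from 18.1 and 18.3 CPM. Ldha, lactate dehydrogenase, was lower (180 and 128 CPM to 70.6, 46.6 and 79.5 CPM), but none of the 3 decreases was called without the 0 h sample M3. In cholesterol synthesis, 1 of 24 genes rose (Sqle) and 1 fell (Dhcr7), again beside 6.98% and 4.35% of all genes. Both had at most 20.1 CPM in the 5 samples and lost their calls under several alternatives.

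**Figure D4:**
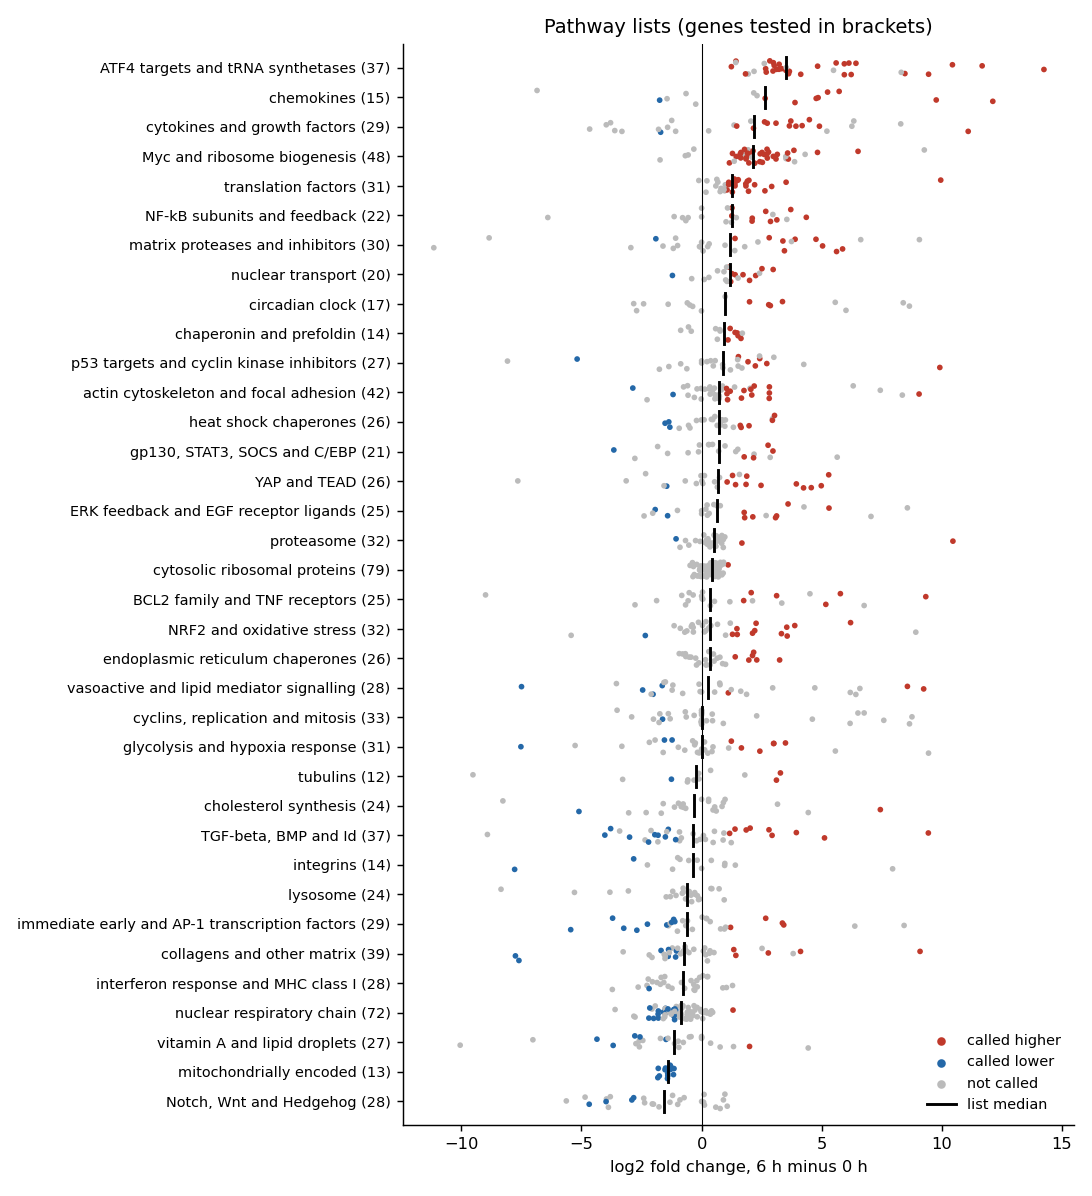
Log2 fold change at 6 h against 0 h (horizontal axis) of every tested member of the 36 pathway lists, ordered by list median (black line), with the number tested in brackets. Red and blue points were called higher and lower, grey points were not called. ATF4 targets had the highest median (3.52), and all 13 mitochondrially encoded genes were blue.

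Immediate early genes are transcribed within minutes of a stimulus and need no new protein. Of 29 tested, 9 were lower at 6 h and 4 higher. The 0 h cells had been through perfusion and sorting, so their levels may differ from those of cells in the liver. The part of isolation in these levels was not tested. Fos had 2287 and 3189 CPM at 0 h, 260, 327 and 247 CPM at 3 h and 43.6, 86.1 and 58.1 CPM at 6 h (log2 fold change -5.45 ± 0.38, adjusted p = 2.89e-07). Jun went from 2724 and 3651 CPM to 594, 768 and 639 CPM (-2.26 ± 0.22), from 1926, 2218 and 2101 CPM at 3 h. Btg2, an antiproliferative gene, went from 915 and 1693 CPM to 219, 259 and 126 CPM (-2.70 ± 0.30). Junb fell by 1.12 on the log2 scale, a call lost without the 0 h sample M2 (adjusted p = 0.117), without which 4 of the 9 were called. Egr1 had 1470 and 1833 CPM at 0 h and 1332, 2544 and 1822 CPM at 6 h, and the groups overlapped. The 4 that rose were Klf6, Maff, Mafk and Fosl2, of which the last 3 were named after their values were seen. Klf6, a zinc finger factor, went from 183 and 188 CPM through 586, 780 and 809 CPM to 1955, 2453 and 1542 CPM (3.42 ± 0.33).

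Feedback genes and ligands of the EGF receptor and ERK cascade were called higher in 7 of 25 cases and lower in 2. Ereg, the ligand epiregulin, rose from 17.1 and 10.0 CPM to 494, 553 and 531 CPM (5.30 ± 0.31, adjusted p = 9.07e-08) and belongs to both programs. Errfi1, an inhibitor of the receptor, rose from 165 and 149 CPM to 1479, 2435 and 1790 CPM (3.60 ± 0.47). Hbegf, another ligand, rose from 17.6 and 7.02 CPM to 67.0, 176 and 71.4 CPM (3.12 ± 0.50).

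NF-kB is held in the cytoplasm by inhibitors that it induces itself. Of 22 tested subunits and feedback genes, 9 rose and 0 fell against 0 h, while 3 were lower and 0 higher at 6 h than at 3 h. Tnip1, an inhibitor of the pathway, had 43.7 and 23.8 CPM at 0 h, 1373, 1231 and 1156 CPM at 3 h and 294, 310 and 277 CPM at 6 h. It was called in both comparisons (3.13 ± 0.39 against 0 h; -2.09 against 3 h, adjusted p = 0.00149). Nfkbia, the main inhibitor, had the same shape with 620 and 1509, then 6699, 4373 and 6746, and then 3345, 1643 and 2573 CPM. It missed the threshold against 0 h (adjusted p = 0.123) and passed it with the M number as a replicate block (adjusted p = 0.00301). The adhesion molecule Vcam1 had 220 and 356 CPM at 0 h and 2191, 1836 and 2285 CPM at 6 h (2.87 ± 0.28). The subunit Nfkb1 rose from 99.9 and 90.3 CPM to 337, 588 and 298 CPM (2.10 ± 0.38).

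Chemokines were among the most abundant of the genes that rose. Of 15 tested, 8 rose and 1 (Cxcl10, named after its values were seen) fell, a call that 6 alternatives did not give. Ccl2, which attracts monocytes, rose from 154 and 220 CPM to 2559, 3632 and 2400 CPM at 3 h and 5212, 7198 and 3780 CPM at 6 h (4.85 ± 0.36 against 0 h, adjusted p = 4.85e-07). Ccl7, its neighbour in function, rose from 15.1 and 7.77 CPM to 460, 932 and 380 CPM (5.72 ± 0.51). Cxcl1 and Cxcl2, which attract neutrophils, did not pass the test between 3 h and 6 h. Cxcl1 had 428 and 363 CPM at 0 h and 6818, 7580 and 3138 CPM at 6 h (3.89 ± 0.50). Cxcl2 had 97.4 and 83.0 CPM at 0 h and 2457, 3506 and 1409 CPM at 6 h (4.77 ± 0.68). The 6 h sample M2 was the lowest for all of these chemokines, and still above both fresh samples.

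The promoters of Cxcl1 and Cxcl2 are shown because both rose. All 3 chemokine genes that rose and have a single promoter in the RefSeq table (Cxcl1, Cxcl2 and Cxcl3) hold an NF-kB motif in the 250 bases before the start site, found as overlapping matches on both strands. So do 6.09% of the promoters of all genes called higher and 4.35% of all promoters. Whether NF-kB acted on these genes was not tested. Promoters of Cxcl1 (chr5:90890995-90891244 on the plus strand) and Cxcl2 (chr5:90903649-90903898 on the plus strand) of GRCm38.p6 are printed in the direction of transcription with the motif in capitals.
Cxcl1 promoter: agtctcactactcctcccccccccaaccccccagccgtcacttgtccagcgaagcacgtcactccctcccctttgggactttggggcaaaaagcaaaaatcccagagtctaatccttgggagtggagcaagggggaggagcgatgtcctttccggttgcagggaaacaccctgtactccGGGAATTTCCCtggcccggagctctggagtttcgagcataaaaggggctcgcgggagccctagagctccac
Cxcl2 promoter: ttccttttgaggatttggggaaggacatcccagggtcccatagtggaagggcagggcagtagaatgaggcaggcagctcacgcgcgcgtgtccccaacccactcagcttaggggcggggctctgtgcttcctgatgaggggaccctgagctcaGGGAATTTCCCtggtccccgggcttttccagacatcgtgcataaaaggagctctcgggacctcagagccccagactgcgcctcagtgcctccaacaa

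**Figure D5:**
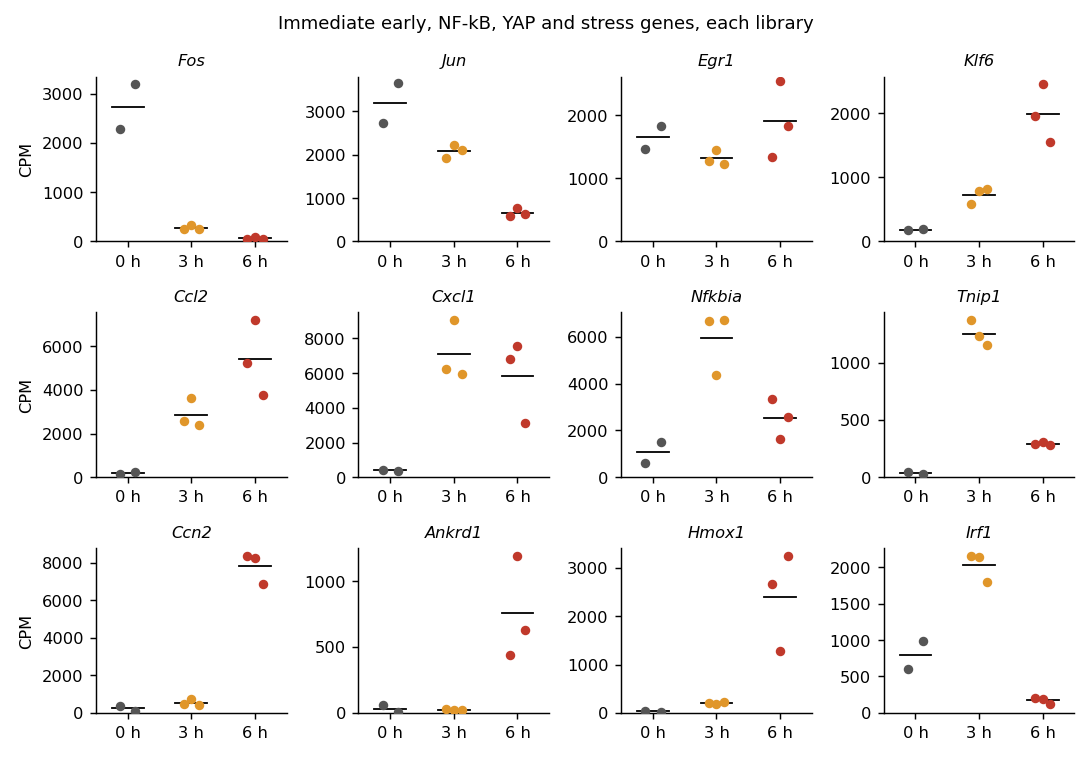
CPM (vertical axis, starting at 0) of 12 signalling and stress genes in each library at 0, 3 and 6 h, with group means as lines. Fos and Jun fell from 0 h on, Tnip1 and Nfkbia were highest at 3 h, and Ccn2, Ankrd1 and Hmox1 were highest at 6 h.

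Cytokines and growth factors were called higher in 12 of 29 cases, and 1, Hgf, fell. Inhba, which encodes the activin A subunit, rose from 33.6 and 65.9 CPM to 553, 892 and 844 CPM (3.93 ± 0.33), and was also higher than at 3 h (2.30, adjusted p = 0.000196). Csf1, the growth factor of macrophages, rose from 271 and 113 CPM to 2089, 3156 and 1980 CPM (3.65 ± 0.38). The neurotrophin Bdnf rose too, from 10.0 and 3.26 CPM to 142, 299 and 129 CPM. Hgf, the hepatocyte growth factor that HSCs make in the healthy liver, fell from 1057 and 1478 CPM to 382, 345 and 438 CPM (-1.71 ± 0.24, adjusted p = 0.000233). Of 21 genes of gp130, STAT3, SOCS and C/EBP, 4 rose and 1 (Socs3) fell, beside 6.98% and 4.35% of all genes. Osmr, the receptor for oncostatin M, rose from 66.3 and 42.9 CPM to 372, 509 and 229 CPM (2.77 ± 0.32), and Jak2 by 2.16 ± 0.36 on the log2 scale. Interferon and MHC class I genes gave 1 lower call of 28 with edgeR, beside 4.35% of all genes. DESeq2 called 4 lower and 0 higher, and fitting only the groups compared gave 6 and 1. The edgeR call was Irf1, which fell. It had 602 and 983 CPM at 0 h, 2159, 2143 and 1800 CPM at 3 h and 202, 197 and 123 CPM at 6 h (-2.19 ± 0.37 against 0 h; -3.55 against 3 h, adjusted p = 0.000113). B2m and H2-D1, which make up class I molecules, were not called.

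Genes of survival and of the cell cycle were called in part, beside 6.98% of all genes called higher and 4.35% called lower. Of 25 genes of the BCL2 family and TNF receptors, 6 rose and 0 fell, but only 2 were called without the 0 h sample M2. Tnfrsf12a, the receptor of TWEAK, held its call throughout and rose from 6.53 and 6.27 CPM to 388, 403 and 262 CPM (5.78 ± 0.36). Of 27 p53 targets and cyclin kinase inhibitors, 6 rose and 1 (Cdkn2d) fell, a call lost with the M number as a block (adjusted p = 0.101). Cdkn1a, or p21, rose from 59.3 and 74.2 CPM to 463, 311 and 542 CPM (2.71 ± 0.32). Mdm2, the ligase of p53, rose from 63.3 and 81.0 CPM to 214, 200 and 212 CPM (1.53 ± 0.22). Plk2 rose from 212 and 391 CPM to 1286, 1838 and 1142 CPM (2.24 ± 0.35). Of 33 genes of cyclins, replication and mitosis, 0 rose with edgeR (1 at an unadjusted p below 0.05, and 2 by DESeq2) and 1, Ccnd1, fell (200 and 133 CPM to 53.1, 73.1 and 35.2 CPM). Its call was lost without the 0 h sample M3. Clock genes were higher in 4 of 17 cases, beside 6.98% of all genes. Nr1d2, a nuclear repressor of the clock, rose from 22.6 and 29.8 CPM to 165, 173 and 209 CPM (2.79 ± 0.41). The labels give no time of day of collection, so hours in culture and time of day cannot be told apart for these genes. Cry2 and Nr1d1 lost their calls without the 0 h sample M2, and Nfil3 without the 6 h sample M1.

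The YAP and TEAD list holds these mechanosensitive factors, their regulators and genes downstream of them. Of 26 tested, 11 rose and 1 (Arhgef17) fell against 0 h, a call that 6 alternatives did not give, and 7 members were higher at 6 h than at 3 h. Ccn2, or connective tissue growth factor, had 384 and 114 CPM at 0 h, 499, 724 and 426 CPM at 3 h and 8378, 8252 and 6863 CPM at 6 h (4.98 ± 0.52 against 0 h; 3.83 against 3 h, adjusted p = 0.00018). Ankrd1 had 58.2 and 7.52 CPM at 0 h, 26.2, 18.5 and 24.0 CPM at 3 h and 443, 1191 and 631 CPM at 6 h (4.56 ± 0.67 against 0 h). Both belong to the programs of the study. Outside them, Ccn1 rose from 297 and 590 CPM to 2201, 2761 and 2439 CPM (2.47 ± 0.44), Crim1 from 103 and 66.4 CPM to 211, 386 and 319 CPM, and the factor Tead1 from 212 and 176 CPM to 397, 614 and 539 CPM. Their promoters are shown because both were among the members that rose. The list was made of genes tied to these factors beforehand, and whether the factors acted here was not tested. The TEAD motif GGAATG was present on either strand in 4 of 6 promoters of members called higher (66.7%). It was present in 8.44% of the promoters of all genes called higher and in 10.5% of all promoters. Those of Ankrd1 (chr19:36119845-36120094 on the minus strand) and Ccn1 (chr3:145649986-145650235 on the minus strand) of GRCm38.p6 are given in the direction of transcription with the motif in capitals, which reads as the reverse complement in Ccn1.
Ankrd1 promoter: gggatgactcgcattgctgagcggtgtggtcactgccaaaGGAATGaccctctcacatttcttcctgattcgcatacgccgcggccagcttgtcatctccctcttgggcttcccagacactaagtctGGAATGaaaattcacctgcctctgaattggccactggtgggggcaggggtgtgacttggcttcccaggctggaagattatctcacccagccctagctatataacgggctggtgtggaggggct
Ccn1 promoter: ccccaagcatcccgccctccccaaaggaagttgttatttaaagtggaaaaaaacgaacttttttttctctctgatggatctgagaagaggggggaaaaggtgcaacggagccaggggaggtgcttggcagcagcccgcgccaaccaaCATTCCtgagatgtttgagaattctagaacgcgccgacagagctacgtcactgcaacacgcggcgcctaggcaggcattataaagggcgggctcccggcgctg

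Of 42 genes of the actin cytoskeleton and focal adhesions, 13 rose and 2 fell. With the size factors of DESeq2 9 rose, and without any 1 of the 5 samples 0 or 1 fell. Filip1l rose from 111 and 174 CPM to 697, 1236 and 1096 CPM (2.82 ± 0.26). The tropomyosins Tpm1 and Tpm4 rose by 2.19 ± 0.23 and 2.05 ± 0.19 on the log2 scale. Actb, the most abundant, had 7826 and 7170 CPM at 0 h and 11815, 14125 and 15068 CPM at 6 h. Its difference passed the test but stayed below a fold of 2 (0.87 ± 0.14, adjusted p = 0.000709). Of 12 tubulin genes, 2 rose and 1 fell, beside 6.98% and 4.35% of all genes. Tubb6 rose from 42.2 and 39.1 CPM to 271, 430 and 354 CPM (3.11 ± 0.26), with no difference called after 3 h. Of 14 integrins, 0 rose and 2 fell with edgeR (2 higher and 4 lower at an unadjusted p below 0.05; 0 and 4 by DESeq2; 1 and 1 with the M number as a block). Itgb5, a subunit of a vitronectin receptor, went from 159 and 176 CPM to 43.9, 5.85 and 21.3 CPM, while Itga4 had 11.3 CPM in 1 fresh sample and no count in the others, and lost its call under most alternatives.

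Of 39 genes of collagens and other matrix, 5 rose and 7 fell. Tenascin C (Tnc) rose from 53.2 and 15.5 CPM to 396, 782 and 578 CPM (4.12 ± 0.55), thrombospondin 1 (Thbs1) from 23.6 and 40.1 CPM to 203, 315 and 142 CPM, and Col4a1, of basement membrane collagen, from 1093 and 929 CPM to 2448, 2702 and 2994 CPM (1.43 ± 0.18). Vcan and Col4a2 rose as well. Of the fibrillar collagens, Col1a2 and Col3a1, named after their values were seen, fell, while Col5a1 and Col5a2 were not called. Col1a2 went from 696 and 566 CPM to 168, 253 and 166 CPM (-1.69 ± 0.36), and Col3a1 from 2067 and 1932 CPM to 688, 1065 and 532 CPM (-1.39 ± 0.35). Col1a1 had 447 and 161 CPM and then 139, 159 and 133 CPM, a call that was lost with the M number as a block (adjusted p = 0.105), when only the groups compared were fitted (0.251) and without any of the 3 samples at 6 h. Without the 0 h sample M3, the log2 fold change of Col1a1 was -0.20 (adjusted p = 0.871). The number of members that fell was 4 without the 0 h sample M3 or the 6 h sample M1, and the number that rose was 3 without the 0 h sample M2. Fbln5, of elastic fibres, went from 183 and 177 CPM to 68.8, 63.2 and 75.6 CPM (-1.38 ± 0.28). Decorin (Dcn), the most abundant of the list, had 18182 and 20177 CPM at 0 h and 12331, 11695 and 11616 CPM at 6 h, which passed the test with less than a fold of 2 (-0.69 ± 0.16).

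Of 30 proteases and their inhibitors, 9 rose and 1 fell (5 rose without the 0 h sample M2). The collagenase Mmp13 rose from 10.0 and 1.00 CPM to 141, 140 and 211 CPM (5.03 ± 0.67). Timp3, an inhibitor of metalloproteinases, had 346 and 18.6 CPM at 0 h and 1587, 2024 and 2060 CPM at 6 h. Its fresh samples were far apart, and its call was lost when only the groups compared were fitted (adjusted p = 0.145).

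Of 37 TGF-beta, BMP and Id genes, 9 were higher and 9 lower. Ligands were on both sides. Bmp10 rose from 305 and 324 CPM to 1780, 1961 and 3460 CPM (2.93 ± 0.36, adjusted p = 6.37e-05) and Bmp6, Bmp2, Tgfb2 and Tgfb3 were called higher, whereas Bmp4 and Gdf2 (BMP9) were called lower. The call of Gdf2 was lost without the 6 h sample M1 or M2 (adjusted p = 0.112 and 0.102). That of Bmp4 was lost without the 6 h sample M1 (adjusted p = 0.124) and with the fold tested against 1.5 (0.122). Id genes, the direct targets of BMP receptors, fell: Id2 went from 196 and 235 CPM to 13.1, 34.3 and 33.2 CPM (-3.0 ± 0.40) and Id3 from 1722 and 2478 CPM to 633, 591 and 569 CPM (-1.81 ± 0.32). Id1 fell too, and Id4 was not called (adjusted p = 0.635). Regulators of the pathway that rose were the ligase Smurf2 (39.7 and 85.0 CPM to 239, 235 and 288 CPM), the repressor Skil (34.1 and 39.6 CPM to 119, 146 and 136 CPM) and Tgif1. Without the 0 h sample M3, 5 genes were lower in place of 9, and 14 were with DESeq2's own test.

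Genes of stellate cell identity were lower in part. Of 32 genes of quiescent HSCs, 15 fell and 1 (Nes, nestin) rose, with a median of -1.77. Their sum went from 43875 and 52024 CPM at 0 h and 41421 to 46927 CPM at 3 h to 26333, 25007 and 26814 CPM at 6 h. The transcription factor Lhx2 went from 391 and 537 CPM to 46.6, 60.7 and 54.1 CPM (-3.11 ± 0.37) and Foxf1 from 221 and 262 CPM to 50.1, 37.3 and 51.5 CPM (-2.38 ± 0.26). Tmem56 went from 1355 and 2214 CPM to 166, 139 and 168 CPM (-3.50 ± 0.31, adjusted p = 2.55e-06). Mapt, the microtubule protein tau, went from 865 and 828 CPM to 69.7, 57.7 and 106 CPM (-3.44 ± 0.40). Each of these was also lower at 6 h than at 3 h. Ecm1 was not called, with 3095 and 3122 CPM at 0 h and 3436, 2979 and 4605 CPM at 6 h.

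Of 27 genes of vitamin A and lipid droplets, 5 fell and 1 rose (8 fell with the size factors of DESeq2, and 3 when either 0 h sample was left out). Lrat, which esterifies retinol for storage, had 735 and 1074 CPM at 0 h, 467, 433 and 651 CPM at 3 h and 86.0, 56.6 and 69.0 CPM at 6 h (-3.68 ± 0.82, adjusted p = 0.00783). Rxra, a retinoid X receptor, went from 171 and 219 CPM to 35.0, 24.8 and 39.0 CPM (-2.57 ± 0.36). G0s2, an inhibitor of lipid droplet lipase, had fallen by 3 h, from 288 and 358 CPM to 17.6, 31.6 and 13.7 CPM, and stood at 16, 21.0 and 10.1 CPM at 6 h. Rdh10, a retinol dehydrogenase, rose from 32.1 and 24.3 CPM to 156, 76.6 and 105 CPM and was not called when either 0 h sample was left out.

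Genes of vasoactive and lipid mediator signalling (receptors, ligands and enzymes) were lower in 4 of 28 cases and higher in 3. Over all genes tested, 4.35% were lower and 6.98% higher. None of the 3 higher calls held when either 0 h sample was left out. Agtr1a, the angiotensin II receptor, went from 459 and 648 CPM to 62.6, 132 and 108 CPM (-2.45 ± 0.50). The subunits of the nitric oxide receptor, Gucy1a1 and Gucy1b1, went from 558 and 675 CPM to 158, 279 and 158 CPM and from 490 and 711 CPM to 126, 160 and 158 CPM. The endothelin receptor Ednrb was not called (364 and 393 CPM to 565, 677 and 673 CPM, adjusted p = 0.112). Notch, Wnt and Hedgehog genes gave 4 lower calls of 28 and 0 higher with edgeR (2 higher at an unadjusted p below 0.05, 0 by DESeq2), with a median of -1.55 (-1.26 with bounds). Hes1, the target of Notch, went from 2232 and 2584 CPM through 806, 731 and 831 CPM to 501, 369 and 148 CPM (-2.83 ± 0.40). Wnt4 went from 166 and 156 CPM to 2.67, 9.68 and 18.1 CPM (-3.98 ± 0.80). Ptch1 and Fzd1 were also lower and lost their calls without the 0 h sample M2, while Rspo3, the most abundant after Hes1, stayed below a fold of 2 (0.77 ± 0.25).

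Against 3 h, 680 genes (4.49%) were called at 6 h, 379 of them higher (2.5%) and 301 lower (1.99%). These comparisons share the 6 h samples with the comparison to 0 h. Of the 1056 genes higher at 6 h than at 0 h, 246 were also higher than at 3 h, and 11 were lower than at 3 h. Of the 659 lower genes, 186 were also lower than at 3 h and 0 were higher. The remainder did not pass the test between 3 h and 6 h, which does not show that they stayed level.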

How the data were processed

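Counts per gene were analysed from 3' end libraries (QuantSeq 3' FWD) of mouse HSCs at 0, 3 and 6 h. The submitters' notes name STAR, StringTie and mm10. The counting tool is not given in the sources used here. The authors deposited raw counts for 55487 genes, without normalization. Gene symbols and promoters came from RefSeq and the reference tables of GRCm38.p6.

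Genes were tested with edgeR 4.0.16 (R 4.3.3) by the quasi-likelihood F test on all 19 samples, with TMM scaling and its default expression filter, which kept 15138 genes (biological coefficient of variation 1.063). A gene was called where its fold exceeded 2 with a Benjamini-Hochberg adjusted p under 0.1. The SE was taken from the log2 fold change and its F statistic. The script was tested on simulated data. DESeq2 1.42.0, other scalings and filters, the M number as a block and leaving out single samples were tried as alternatives, and thinning to 2073171 counts was added after seeing the data.

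The replicate number is that after M in the labels. The headers tie each number to 1 isolation date, which M1 and M3 share. The main fit did not pair samples, and the M number entered only as the block of an alternative fit. For a check, the 0 h and 6 h samples of M3 and of M2 were matched by number. Their deviations from the group means correlated at 0.014 and 0.0157. With 2 samples at 0 h these deviations mirror each other, and the crossed pairs gave -0.014 and -0.0157, so the values are not separate checks.

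The 45 lists (36 pathways and 9 of markers) and the members were chosen with earlier results of these data known. Named genes were the 15 largest called increases and decreases outside both programs at a mean of at least 50 CPM without overlap of the groups, up to 4 called members of each pathway list with the smallest p and the 2 with the highest level, and the 2 highest markers of each cell type. Genes named outside this rule were chosen after their values were seen. The floor of 3 counts covers counting error only, whereas the SE also holds the spread between samples that the fit estimated. Some genes are not reported here.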

Additional observations from a re-analysis of the deposited data

How the results depend on the processing

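Against 0 h, DESeq2's own test called 2589 genes, of which 1354 were lower. Leaving out 1 sample gave 1157 to 1662 genes, 816 to 1022 of them higher and 341 to 754 lower, and the lower count was 413 and 341 without the 0 h sample M3 or M2. Against 3 h, DESeq2 called 1338 genes (822 lower). Testing the fold against 1.5 gave 300 (163 higher, 137 lower), fitting only the groups compared gave 501 lower genes, and leaving out 1 sample gave 246 to 346 higher ones. The cause of these differences was not tested. With the M number as a replicate block, 1682 genes were called against 0 h (1040 higher, 642 lower) and 664 against 3 h (364 and 300). Beside the calls already named with the block, it ended those of Itga4 and Sqle (adjusted p = 0.208 and 0.121) and gave calls for Ptprb and Clec3b (0.0375 and 0.048). Of 3542 gene values under alternatives, 3338 kept their side of the threshold, 163 lost it and 41 gained it, and none of the called values changed direction. Of 1350 list counts, 189 moved by over 1.5 times, 28 of them without the 0 h sample M2. Hepatocyte markers were lower in 16 cases after thinning, and Kupffer cell markers in 7 with DESeq2. With 2 fresh samples of 2073171 and 4466759 counts, genes near the floor could not be resolved.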
